A study of Mus musculus with 8 samples.

Results

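The genes described are the serpins, with the plasminogen activators, their receptor and plasminogen itself, in stromal cells of the ulcerated mouse small intestine. Members were chosen by gene symbol alone: every symbol beginning with Serpin, a clade letter from a to i and a digit, without Serpinh1 and Serping1, together with Plau, Plat, Plaur and Plg. This gave 70 of the 53801 genes in the deposited table. They comprised 29 clade A, 28 clade B, 1 clade C, 1 clade D, 3 clade E, 2 clade F and 2 clade I serpins, and the 4 genes of plasminogen activation.

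RNA was sequenced in 8 libraries from indomethacin-treated LTβR-YFP mice, in which a YFP reporter is named after the lymphotoxin beta receptor. Non-haematopoietic, non-endothelial cells (CD45-, CD31-) from intestinal ulcers were sorted into 4 YFP-positive and 4 YFP-negative libraries, and the titles give each group the replicate numbers 1 to 4. All libraries came from animals given indomethacin, a cyclooxygenase inhibitor that damages the small intestine, so no untreated cells were compared. The labels do not describe the reporter construct, the ages of the mice or whether equal numbers share an animal, and p-values therefore measure only the spread between these samples.

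Serpins are suicide inhibitors: the target protease cleaves a reactive loop, the serpin refolds, and both are trapped in a covalent complex that endocytic receptors clear. Urokinase (Plau), held at the cell surface by its receptor (Plaur), and tissue-type activator (Plat) convert plasminogen to plasmin, which dissolves fibrin and degrades matrix. Serpins of clade E and others block the activators, and fibroblasts are a known source of activators and inhibitors in wounds. Some serpins, such as pigment epithelium-derived factor (Serpinf1), have lost inhibition and act as ligands.

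Library totals were 12481608 to 29385718 counts. The 9 stromal markers checked (among them Pdgfra and Col3a1) summed to 22206 to 51835 CPM (counts scaled to the TMM-normalised library total) per library, against 2.87 to 26.4 CPM for 6 leukocyte markers and 34.7 to 167 CPM for 7 endothelial markers. Marker sums of endothelium, epithelium, squamous epithelium, mesothelium, hepatocytes, leukocytes, macrophages, mast cells, T cells and B and plasma cells went both ways between pairs. Those of 5 other cell types moved one way in 4 of 4 pairs of equal number, which some may do by chance. They were lower in YFP-positive cells for stroma (26705 to 51835 against 22206 to 35913 CPM, with 4 of 9 genes called lower), pericytes (1202 to 1639 against 1053 to 1350 CPM, 1 of 4) and enteric glia (5.21 to 33.6 against 1.52 to 3.86 CPM, 1 of 3 tested). They were higher for smooth muscle (187 to 356 against 233 to 489 CPM, 1 of 4 genes called higher) and neutrophils (1.19 to 4.48 against 2.69 to 8.48 CPM, 0 of 3 tested). The share of mitochondrial counts was also lower in 4 of 4 pairs (8.07% to 12.4% against 7.71% to 9.43%). The pericyte sum was mostly Rgs5, which was lower in 4 of 4 pairs (900 to 1380 against 696 to 1039 CPM). Abcc9 (104 to 202 against 111 to 228 CPM) and Notch3 (1.89 to 6.82 against 5.72 to 10.9 CPM) were higher in 4 of 4. Kcnj8 was lower only in the pair of number 2. The smooth muscle sum was mostly Myh11, which was higher in 4 of 4 pairs, as was Des. Actg2 was lower in the pair of number 3, and Cnn1 in those of numbers 2 and 3. No neutrophil gene was higher in 4 of 4. In the pair of number 1 only Csf3r was higher (0.167 against 1.96 CPM), while S100a8 (1.28 against 0.758 CPM), S100a9 and Retnlg were lower. No stromal, pericyte, glial or smooth muscle marker was at 0 in all libraries, and 1 of 6 neutrophil markers was. Their part in the results below was not tested. YFP-positive replicate 2 stood apart in carrying keratins of squamous epithelium, described with the clade B serpins. In bulk RNA, fewer cells of a type and less RNA per cell cannot be told apart.

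Of the 70 members, 26 had enough counts to be tested and 44 did not, of which 13 had no count in any library and the other 31 had at most 106 counts over all 8 libraries. The groups were compared with edgeR's quasi-likelihood test over 15945 genes, calling a gene at a Benjamini-Hochberg adjusted p of 0.05 or below. With group alone in the model 0 of 15945 genes (0%) were called, and none of the members. At an unadjusted p of 0.05 or below there were 325 of 15945 genes, 5 of them among the 26 tested members. The 325 are fewer than evenly spread p-values would give at that threshold. DESeq2 and limma voom with group alone also called 0 members. The edgeR fit with group alone was the planned main one. Libraries of equal number deviated together (correlations 0.183 to 0.442), so the replicate number was entered as a block in an alternative fit. Folds and adjusted p-values below are from this blocked edgeR fit unless another is named, and rose or fell refers to it.

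In that fit 1 member rose, Plau, and 9 fell, among them Serpina3n, Serpina3m, Serpina3i, Serpina3h, Serpina3e-ps, Serpine2, Serpinf1 and Serpini1. Thus the activator urokinase was higher in YFP-positive cells and every serpin called was lower. The stromal marker sum was lower in the same 4 pairs. Col1a1, Col1a2, Col3a1 and Dcn made up most of it and were each lower in all 4, as was Vim. Pdgfra (1363 to 1967 against 1310 to 2025 CPM), Pdgfrb (235 to 372 against 230 to 397 CPM), Thy1 and Pdpn went both ways between pairs. The 9 lower calls among 26 tested members were 34.6%, against 1.59% of all genes (253 of 15945), and the 1 higher call was 3.85%, against 0.696% (111 genes). The median log2 fold change was -0.36 over the tested members and 0.0048 over all genes. Scaling by library sizes alone gave 2 higher and 7 lower members, and 212 higher and 153 lower genes in all, with the median of all genes at 0.091. In 2 of the 26 members, Serpina3i and Serpini1, every YFP-positive library lay below every YFP-negative one, against 0.859% of all genes. The authors' deposited table, whose statistics were recovered by DESeq2 with replicate number and group as terms, gave 1 higher and 10 lower among 29 members with an adjusted p, against 0.939% and 2.07% of its 16502 genes.

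**Figure D1:**
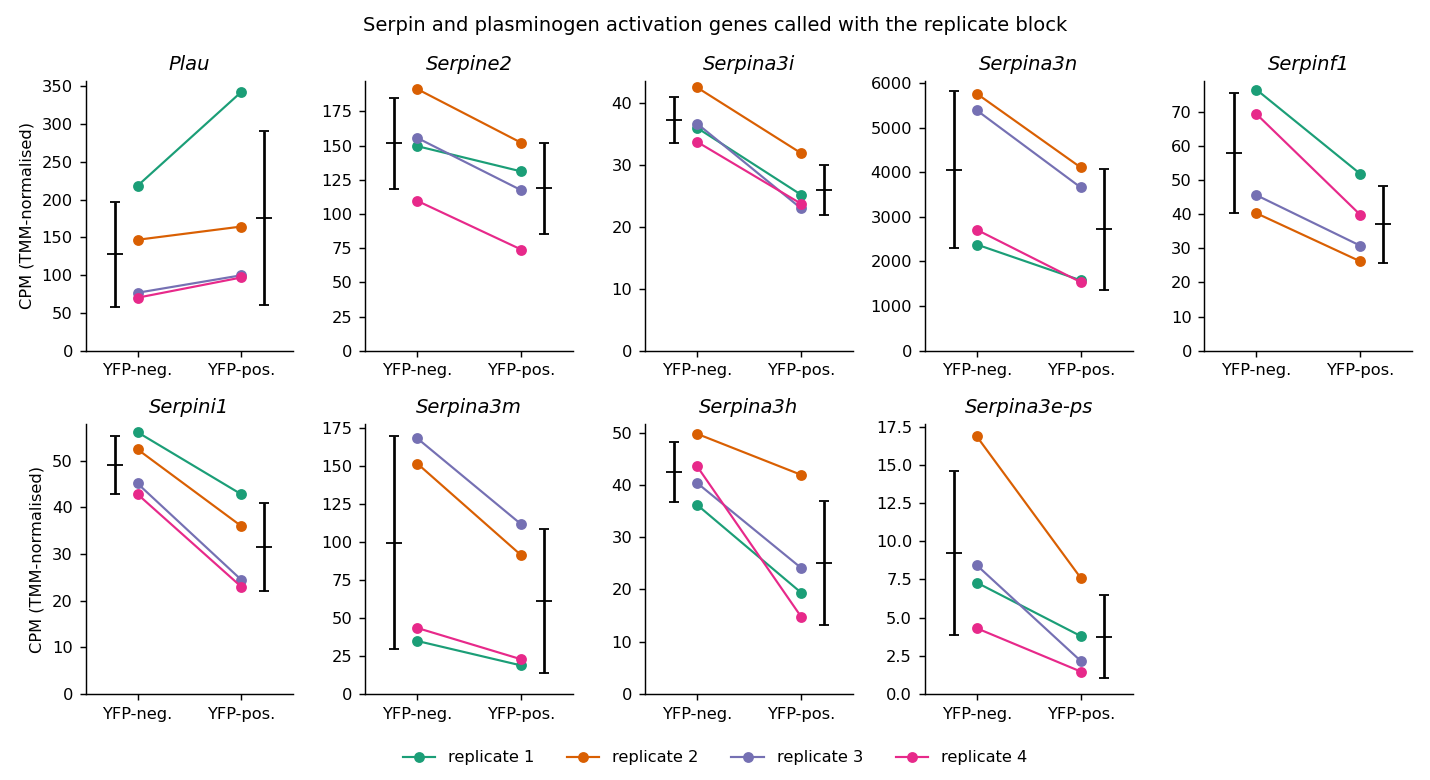
TMM-normalised CPM (linear axis from 0) of 9 of the 10 called members in YFP-negative and YFP-positive libraries. Points are libraries, lines join equal replicate numbers, and black bars are mean ± SD (n = 4); Plau is higher in YFP-positive cells in 4 of 4 pairs and the other 8 are lower in 4 of 4.

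**Figure D2:**
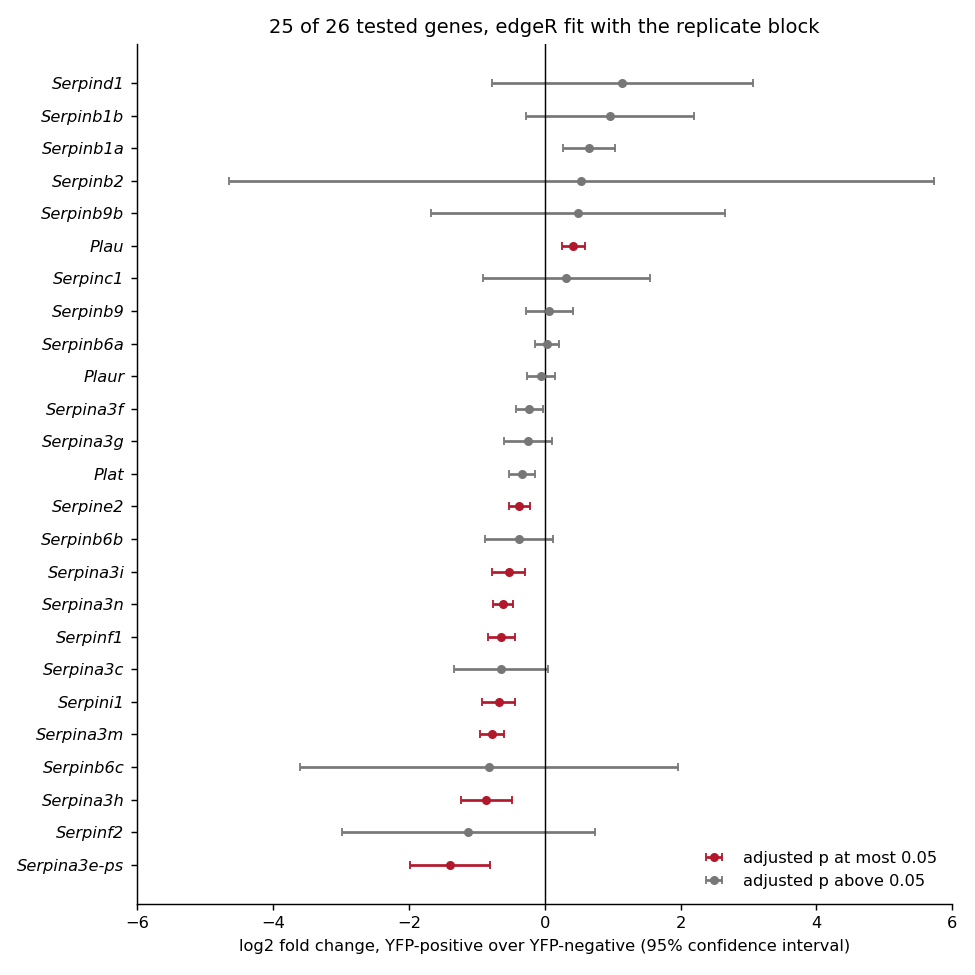
Log2 fold change of YFP-positive over YFP-negative cells with its 95% confidence interval for 25 of the 26 tested members, from the edgeR fit with the replicate block. Called genes are in red. The widest interval is that of Serpinb2 (-4.65 to 5.73), whose counts ran from 0 to 299 between libraries. Intervals are also wide for genes near the detection limit, such as Serpinb6c (-3.60 to 1.97).

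Urokinase, the activator held at the cell surface, was the 1 member called higher. Plau (ENSMUSG00000021822, chr14:20836660-20843385, plus strand, GRCm38) stood at 218, 147, 76.7 and 70.1 CPM in YFP-negative replicates 1 to 4. It stood at 343, 164, 99.9 and 96.9 CPM in YFP-positive replicates 1 to 4. Each YFP-positive library was above its partner, by 1.12 to 1.57 times, while the groups overlapped. Plau rose by 0.42 ± 0.08 on the log2 scale (SE, adjusted p = 0.0101), from 128 ± 69.4 to 176 ± 115 CPM (SD, n = 4). The call was lost without the pair of number 1 (log2 fold change 0.34, adjusted p = 0.0856) and without that of number 3 (0.43, adjusted p = 0.0701). With group alone and YFP-positive replicate 1 left out, the log2 fold change was -0.079.

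Tissue-type activator did not follow urokinase upward. Plat (ENSMUSG00000031538, chr8:22757727-22782844, plus strand) stood at 185, 144, 59.5 and 90.3 CPM among YFP-negative and 130, 128, 56.7 and 59.97 CPM among YFP-positive libraries. It was lower in 4 of 4 pairs, with overlapping groups, and its estimate of -0.34 ± 0.09 (log2, SE) missed the threshold (adjusted p = 0.0700). In the authors' deposited table its adjusted p was 0.0386, and it was called in 4 of 11 other blocked settings. Per kilobase of exon, Plat averaged 17.1 CPM per kb over 8 libraries, against 64.2 for Plau. The sign of Plat was thus opposite to that of Plau in all 4 pairs, although the difference between both genes was not tested.

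For the urokinase receptor no group difference was detected. Plaur (ENSMUSG00000046223, chr7:24462484-24475968, plus strand) stood at 75.0, 74.1, 40.4 and 43.4 CPM among YFP-negative and 80.3, 73.1, 31.3 and 44.8 CPM among YFP-positive libraries. The log2 estimate was -0.06 (95% confidence interval -0.26 to 0.14, adjusted p = 0.920), and turned to 0.027 under scaling by library sizes alone. Plasminogen, the substrate of both activators and chiefly a liver product, had 3 counts in all, 1 in YFP-negative replicate 3 and 2 in YFP-positive replicate 2; Plg exons share 420 bases with Slc22a3 on the opposite strand.

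Protease nexin 1, which inhibits thrombin and urokinase in the matrix, was also lower. Serpine2 (ENSMUSG00000026249, chr1:79794197-79861180, minus strand) stood at 150, 191, 156 and 110 CPM among YFP-negative and 131, 152, 117 and 74.0 CPM among YFP-positive libraries. The groups overlapped and each pair went down. Serpine2 fell by 0.37 on the log2 scale (SE 0.07, adjusted p = 0.0142). The call was lost under scaling by library sizes alone (adjusted p = 0.0512) and without number 3 (0.110) or number 4 (0.103).

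Neuroserpin, which inhibits tissue-type activator, was lower too. Serpini1 (ENSMUSG00000027834, chr3:75557547-75643495, plus strand) stood at 56.2, 52.5, 45.2 and 42.9 CPM among YFP-negative and 42.8, 36.0, 24.4 and 23.0 CPM among YFP-positive libraries. The groups did not overlap, although the lowest YFP-negative library (42.86 CPM) was barely above the highest YFP-positive one (42.81 CPM). Serpini1 fell by 0.68 on the log2 scale (SE 0.11, adjusted p = 0.00400), and its call was lost in 1 of 11 other blocked settings, without number 3 (adjusted p = 0.0556). Neurons and glia are known sources of neuroserpin, and the glial marker sum was lower in the same 4 pairs, as given above. Among YFP-negative libraries that sum ran from 5.21 to 33.6 CPM while Serpini1 ran from 42.9 to 56.2 CPM. The part of glia was not tested.

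Pigment epithelium-derived factor, a secreted anti-angiogenic serpin without inhibitory activity, was lower as well. Serpinf1 (ENSMUSG00000000753, chr11:75409769-75422701, minus strand) stood at 76.5, 40.3, 45.6 and 69.4 CPM among YFP-negative and 51.8, 26.2, 30.8 and 39.8 CPM among YFP-positive libraries. Numbers 1 and 4 were high here, unlike for Plau, and the groups overlapped. Serpinf1 fell by 0.64 on the log2 scale (SE 0.09, adjusted p = 0.00160), and its call stood in 11 of 11 other blocked settings. Serpinf2, the plasmin inhibitor alpha 2-antiplasmin and the neighbour of Serpinf1 on chromosome 11, was at 1.36 ± 0.972 CPM among YFP-negative and 0.83 ± 1.22 CPM among YFP-positive cells (SD, n = 4; adjusted p = 0.744).

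All 8 tested clade A genes were Serpina3 genes, which lie together on chromosome 12 between positions 104146382 and 104414329 (GRCm38). Human has a single gene at this place, alpha 1-antichymotrypsin, and the mouse copies differ mainly in the reactive loop that selects the protease. Of the 8, 5 fell, 0 rose and 3 (Serpina3c, Serpina3f and Serpina3g) were not called. RefSeq promoter windows (GRCm38.p6, 250 bases before to 50 after a start) were found for 19 of the 26 tested members. The 4 shown belong to the most abundant member (Serpina3n), its closest relative by promoter (Serpina3c), a gene that fell (Serpina3i) and one that was not called (Serpina3g). They are written 5′ to 3′ on the gene's strand, with capitals marking motif matches on either strand. The windows are chr12:104406458-104406757 (plus), chr12:104153823-104154122 (minus), chr12:104262872-104263171 (plus) and chr12:104235897-104236196 (plus), in this order.
Serpina3n: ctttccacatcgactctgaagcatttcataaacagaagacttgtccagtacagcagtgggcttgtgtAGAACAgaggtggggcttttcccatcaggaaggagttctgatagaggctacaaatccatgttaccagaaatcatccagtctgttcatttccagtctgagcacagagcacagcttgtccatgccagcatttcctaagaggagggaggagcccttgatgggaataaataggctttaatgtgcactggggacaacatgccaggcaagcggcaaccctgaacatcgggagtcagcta
Serpina3c: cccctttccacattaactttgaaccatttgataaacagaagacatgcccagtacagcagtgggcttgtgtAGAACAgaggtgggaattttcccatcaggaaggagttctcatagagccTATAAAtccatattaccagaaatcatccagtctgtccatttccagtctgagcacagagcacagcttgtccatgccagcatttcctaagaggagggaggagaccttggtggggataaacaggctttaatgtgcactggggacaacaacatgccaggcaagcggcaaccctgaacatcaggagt
Serpina3i: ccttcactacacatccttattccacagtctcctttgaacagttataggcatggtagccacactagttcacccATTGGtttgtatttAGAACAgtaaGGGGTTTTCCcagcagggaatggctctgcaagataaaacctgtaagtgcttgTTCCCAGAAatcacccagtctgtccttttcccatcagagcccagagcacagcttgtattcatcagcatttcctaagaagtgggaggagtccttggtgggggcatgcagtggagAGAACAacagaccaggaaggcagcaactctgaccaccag
Serpina3g: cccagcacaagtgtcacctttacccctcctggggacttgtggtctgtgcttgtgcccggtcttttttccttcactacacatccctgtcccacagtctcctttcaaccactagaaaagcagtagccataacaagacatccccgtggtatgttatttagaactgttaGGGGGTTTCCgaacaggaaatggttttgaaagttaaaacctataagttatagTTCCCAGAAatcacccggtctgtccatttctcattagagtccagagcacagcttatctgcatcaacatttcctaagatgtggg

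The motifs searched on both strands were TATAAA of the TATA box, TTCNNNGAA of STAT factors, TGANTCA of AP-1, GGGCGG of the GC box, CCAAT of the box of that name, CACGTG of the E box, TGTTCT of the glucocorticoid receptor and the NF-kB consensus; in the windows shown, no matches overlapped. Aligned over the window, Serpina3n and Serpina3c were 89.9% identical, Serpina3n and Serpina3i 64.5%, and Serpina3n and Serpina3g 41.4%. TTCNNNGAA was matched in Serpina3i and Serpina3g, and also in Serpina3f, but not in Serpina3n or Serpina3c; 8.30% of all 32851 windows hold it. The NF-kB consensus was matched in Serpina3i and Serpina3g (4.51% of all windows). TGTTCT was matched in Serpina3n, Serpina3c, Serpina3f and, at 2 places, Serpina3i (19.0% of all windows). The gene that fell and the one that was not called thus shared both the STAT and the NF-kB letters. A match describes the letters of the window and is no evidence of binding.

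Serpina3n, a secreted inhibitor of granzyme B and of neutrophil serine proteases, carried most of the family's RNA. It (ENSMUSG00000021091, chr12:104406729-104414329, plus strand) stood at 2381, 5763, 5390 and 2712 CPM in YFP-negative replicates 1 to 4. In YFP-positive replicates 1 to 4 it stood at 1578, 4108, 3660 and 1538 CPM. Numbers 2 and 3 were high and 1 and 4 low in both groups, so the groups overlapped, and each YFP-positive library held 0.567 to 0.713 times the level of its partner. Serpina3n fell by 0.61 on the log2 scale (SE 0.07, adjusted p = 0.000138), a call that stood in 11 of 11 other blocked settings. At a mean of 1643 CPM per kb it made up 84.6% to 91.5% of the summed Serpina3 CPM and 50.6% to 80.7% of that of all 70 members. Of its 50-base exon stretches, 6.90% also occur in another gene.

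Serpina3m was likewise high in numbers 2 and 3, at a lower level. It (ENSMUSG00000079012, chr12:104338486-104394257, plus strand) stood at 34.9, 152, 168 and 43.5 CPM among YFP-negative and 18.7, 91.4, 112 and 22.8 CPM among YFP-positive libraries. Serpina3m fell by 0.78 on the log2 scale (SE 0.08, adjusted p = 0.000138), also in 11 of 11 other blocked settings. It is less certain as a single gene, since 19.1% of its 50-base stretches occur elsewhere, mostly in Serpina3k, with which it shares 60 exon bases.

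Serpina3i differed from these in having nearly the same level in every library of a group. It (ENSMUSG00000079014, chr12:104263122-104269372, plus strand) stood at 36.1, 42.6, 36.8 and 33.8 CPM among YFP-negative and 25.3, 32.0, 23.0 and 23.8 CPM among YFP-positive libraries, without overlap. Serpina3i fell by 0.53 on the log2 scale (SE 0.11, adjusted p = 0.0205). The call was lost in 4 of 11 other blocked settings: library sizes alone (adjusted p = 0.0618), and without number 1 (0.0681), 3 (0.157) or 4 (0.0785). Its neighbour Serpina3h (ENSMUSG00000041449, chr12:104247905-104253669, plus strand), a transcribed pseudogene, stood at 36.2, 49.8, 40.4 and 43.6 CPM among YFP-negative and 19.4, 41.9, 24.1 and 14.8 CPM among YFP-positive libraries. Only YFP-positive replicate 2 reached the YFP-negative range. Serpina3h fell by 0.86 on the log2 scale (SE 0.17, adjusted p = 0.0230), a call lost without number 1 (0.168) or number 3 (0.110). Reads of these neighbours are hard to part: 21.9% of the 50-base stretches of Serpina3h occur in another gene, mostly Serpina3i, and 15.9% of those of Serpina3i, mostly in Serpina3h.

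The largest fold among the called members belonged to a pseudogene at low level. Serpina3e-ps (ENSMUSG00000091553, chr12:104189517-104192926, minus strand) stood at 7.29, 16.9, 8.43 and 4.30 CPM among YFP-negative and 3.79, 7.60, 2.16 and 1.46 CPM among YFP-positive libraries. It fell by 1.39 on the log2 scale (SE 0.28, adjusted p = 0.0128), and the call was lost without number 3 (0.119). Of its 50-base stretches 21.6% occur in other genes, so its counts are uncertain.

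Serpina3g, an intracellular inhibitor of lysosomal cathepsins, and Serpina3f, its neighbour, were not called. Serpina3g (ENSMUSG00000041481, chr12:104236245-104241939, plus strand) stood at 157, 108, 133 and 107 CPM among YFP-negative and 115, 132, 122 and 65.1 CPM among YFP-positive libraries, higher in 1 of 4 pairs. The log2 estimate was -0.25 (95% confidence interval -0.60 to 0.10, adjusted p = 0.665). Without the pair of number 2, in which it was higher in YFP-positive cells, it was called with a log2 fold change of -0.43 (adjusted p = 0.0318). Serpina3f (ENSMUSG00000066363, chr12:104214544-104221129, plus strand) stood at 95.6, 144, 122 and 36.8 CPM among YFP-negative and 105, 106, 104 and 27.9 CPM among YFP-positive libraries, low in number 4 of both groups. Its log2 fold change was -0.23 (95% confidence interval -0.43 to -0.03, adjusted p = 0.343). Serpina3c was at 9.11 ± 10.2 CPM among YFP-negative and 7.45 ± 8.83 CPM among YFP-positive cells (SD, n = 4), lower in 4 of 4 pairs and not called (adjusted p = 0.509).

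None of the 8 tested clade B serpins, which mostly stay inside the cell and protect it from its own and foreign proteases, was called in the blocked edgeR fit. Serpinb1a (ENSMUSG00000044734, chr13:32842092-32851185, minus strand), an inhibitor of neutrophil elastase and cathepsin G, stood at 20.04, 1.11, 8.60 and 15.4 CPM among YFP-negative and 29.3, 2.49, 12.1 and 24.5 CPM among YFP-positive libraries. It was higher in 4 of 4 pairs, by an estimated 0.65 ± 0.18 (log2, SE, adjusted p = 0.0880). The neutrophil marker sum was higher in the same pairs, in that of number 1 through Csf3r alone. That sum was, however, highest in number 3 of both groups (4.48 and 8.48 CPM). Serpinb1a was highest in number 1 of both, where that sum was 2.28 and 2.72 CPM. The part of neutrophils was not tested. Serpinb1a was not called in the blocked edgeR fit. It was called in 3 of 11 other blocked settings: limma voom (adjusted p = 0.0413), library sizes alone (0.0461) and the looser filter (0.0402). Serpinb6a, the most abundant of the clade, was at 110 ± 9.78 CPM among YFP-negative and 112 ± 10.4 CPM among YFP-positive cells (SD, n = 4; adjusted p = 0.958). Its exons overlap Nqo2 and Ripk1 on the opposite strand, and whether reads were counted by strand is not known from the sources. Serpinb9, the granzyme B inhibitor, was at 20.2 ± 10.8 and 20.1 ± 8.34 CPM (SD, n = 4; adjusted p = 0.955).

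One library carried clade B serpins of squamous epithelium, genes chosen here after their values were seen. In YFP-positive replicate 2, Serpinb5 (maspin) had 79 counts, Serpinb7 84, Serpinb8 60, Serpinb11 14 and Serpinb12 6. In the other 7 libraries these genes had at most 11, 1, 20, 0 and 0 counts. Serpinb2, plasminogen activator inhibitor 2, had 299 counts there and 0 to 100 elsewhere. The same library held 449.5 CPM of 10 squamous markers, against 4.89 to 18.1 CPM in the other 7; Krt5 was at 63.3 CPM and Krt14 at 31.7 CPM there, against at most 1.36 and 0.426 CPM elsewhere. Without the libraries of number 2, 12 members were called in place of 10, 1 higher and 11 lower, and all 10 were among them. Over all 16216 genes tested in that fit, 130 were called higher and 296 lower. The squamous keratins' part in the clade B values was not tested.

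**Figure D3:**
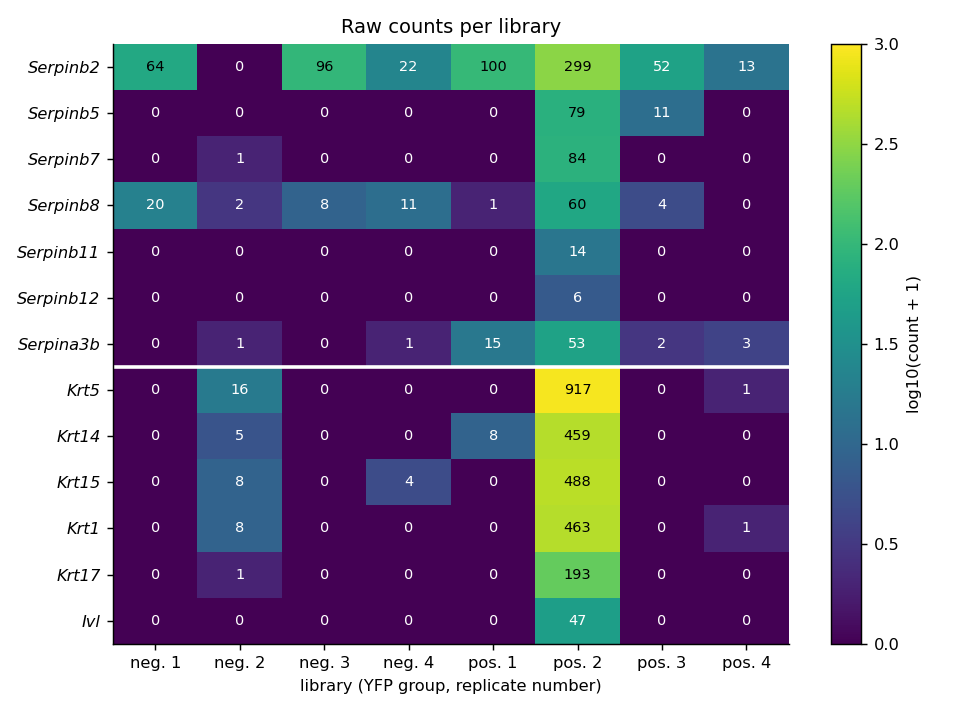
Raw counts per library (printed in each cell; colour is log10 of count + 1) of 6 clade B serpins and Serpina3b above the white line, and of 6 squamous epithelium markers below it. YFP-positive replicate 2 holds the highest count of every row, for example 917 for Krt5 and 84 for Serpinb7.

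The tested coagulation serpins were low, and Serpind1 was near the detection limit. Antithrombin (Serpinc1) was at 2.38 ± 1.81 CPM among YFP-negative and 2.74 ± 1.73 CPM among YFP-positive cells, and heparin cofactor II (Serpind1) at 0.645 ± 0.668 and 1.10 ± 0.630 CPM (SD, n = 4; adjusted p = 0.931 and 0.752). Serpinc1 shares 2942 exon bases with Zbtb37 on the opposite strand. The remaining tested members, Serpinb1b, Serpinb2, Serpinb6b, Serpinb6c and Serpinb9b, had group means of 0.267 to 11.7 CPM and were not called (adjusted p of 0.626 to 0.969).

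Genes that act with the members were read from 9 lists, and the number tested is given with each list. With the block 1 of their tested genes rose and 4 fell, and with group alone 0 were called. Over all genes tested with the block, 0.696% rose and 1.59% fell. The one that rose was Itgb3, an integrin chain that forms a vitronectin receptor with Itgav, from 103 ± 19.6 to 149 ± 51.6 CPM (SD, n = 4; 0.48 on the log2 scale, adjusted p = 0.00743), 1 of 5 tested integrin chains and cofactors that act with the urokinase system. Itgb1 (665 to 725 CPM, adjusted p = 0.450) and Itgav (282 to 313 CPM, adjusted p = 0.338) were the most abundant of that list.

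Of 7 tested genes listed for the endocytic clearance of protease-serpin complexes, not all of them receptors of such complexes, 0 rose and 1 fell. This was Vldlr, from 48.4 ± 17.5 to 27.3 ± 12.1 CPM (SD, n = 4, by 0.87 on the log2 scale, adjusted p = 0.000649). Lrp1, the main receptor that clears these complexes, was far more abundant, at 5981 ± 1053 and 5206 ± 1086 CPM (adjusted p = 0.195). Next in abundance on that list was Mrc2 (383 and 358 CPM, adjusted p = 0.620). Among 4 tested receptors of pigment epithelium-derived factor, Plxdc2 fell by 0.37 on the log2 scale (140 to 108 CPM, adjusted p = 0.0144), and Lrp6 was at 307 and 272 CPM (adjusted p = 0.361). The ligand Serpinf1 and the receptor gene Plxdc2 were thus lower in the same libraries.

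Among 10 tested genes of coagulation, Tfpi2, a Kunitz-type inhibitor of plasmin, fell by 0.87 on the log2 scale, from 19.3 ± 8.03 to 10.4 ± 3.72 CPM (SD, n = 4; adjusted p = 0.0114). The most abundant of that list were Pros1 (284 and 311 CPM, adjusted p = 0.431) and Thbd (217 and 256 CPM, adjusted p = 0.805). Among 10 tested proteases outside the plasminogen system, Prss23 fell by 0.81 on the log2 scale (83.0 to 45.8 CPM, adjusted p = 0.00188), while Ctsb (980 and 944 CPM, adjusted p = 0.857) and Ctsl (598 and 553 CPM, adjusted p = 0.462) were not called. None of 7 tested substrates was called, with Fn1 at 1861 and 2139 CPM (adjusted p = 0.125) and Igfbp5 at 1604 and 1818 CPM (adjusted p = 0.644). None of the 4 genes that dock plasminogen at the cell surface was called either, with Anxa2 at 163 and 172 CPM (adjusted p = 0.574) and S100a10 at 49.0 and 41.8 CPM (adjusted p = 0.338).

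Leukocyte and contact-phase genes were scarce. Of 12 proteases released by leukocytes and mast cells, some of which serpins inhibit, 2 were tested, Prtn3 (9.004 and 10.1 CPM, adjusted p = 0.883) and Cpa3 (0.294 and 0.718 CPM, adjusted p = 0.764). Of 9 genes of fibrin and contact-phase fibrinolysis 1 was tested, Klkb1, at 0.434 and 0.583 CPM (adjusted p = 0.853). F13a1, untested, was the most abundant of that list, at 1.24 and 1.38 CPM.

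Most tested members varied more between replicate numbers than between YFP groups. An edgeR F test of the replicate number, with group in the model, called 16 of 26 tested members (61.5%), against 39.3% of all genes (6270 of 15945). The replicate number took a median of 62.0% of a member's sum of squares (72.2% over all genes) and the YFP group 10.2% (4.39% over all genes), the number having 3 degrees of freedom and the group 1. The group's share was the larger in 3 of 26 tested members: Serpina3i (73.8% against 23.9%), Serpini1 (58.2% against 35.8%) and Serpina3h (52.7% against 31.7%). The labels do not say what a number stands for.

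Which numbers were high differed between members. Plau averaged 280, 156, 88.3 and 83.5 CPM in numbers 1 to 4, highest in number 1. Plat (157, 136, 58.1 and 75.1 CPM) and Plaur (77.7, 73.6, 35.8 and 44.1 CPM) were likewise higher in numbers 1 and 2 than in 3 and 4. For 3 of the 8 tested Serpina3 genes other numbers were high: Serpina3n averaged 1979, 4936, 4525 and 2125 CPM, Serpina3m 26.8, 122, 140 and 33.1 CPM, and Serpina3c 0.598, 21.3, 9.50 and 1.73 CPM, each high in numbers 2 and 3. In the other 5, numbers 2 and 3 were not set apart from both 1 and 4 in this way. Serpina3e-ps, Serpina3h and Serpina3i were highest in number 2 with number 3 close to number 1. Serpina3f was also highest in numbers 2 and 3 (125 and 113 CPM), but number 1 was close (100 CPM) and number 4 low (32.3 CPM). Serpina3g was highest in number 1. The F test between numbers did not call Serpina3g or Serpina3i (adjusted p = 0.124 and 0.195). Among tested members Serpina3c, whose promoter window was nearest to that of Serpina3n, had the widest range, 35.6 times between its highest and lowest number. Serpinb1a, by contrast, was lowest in number 2 (24.7, 1.80, 10.4 and 19.9 CPM).

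**Figure D4:**
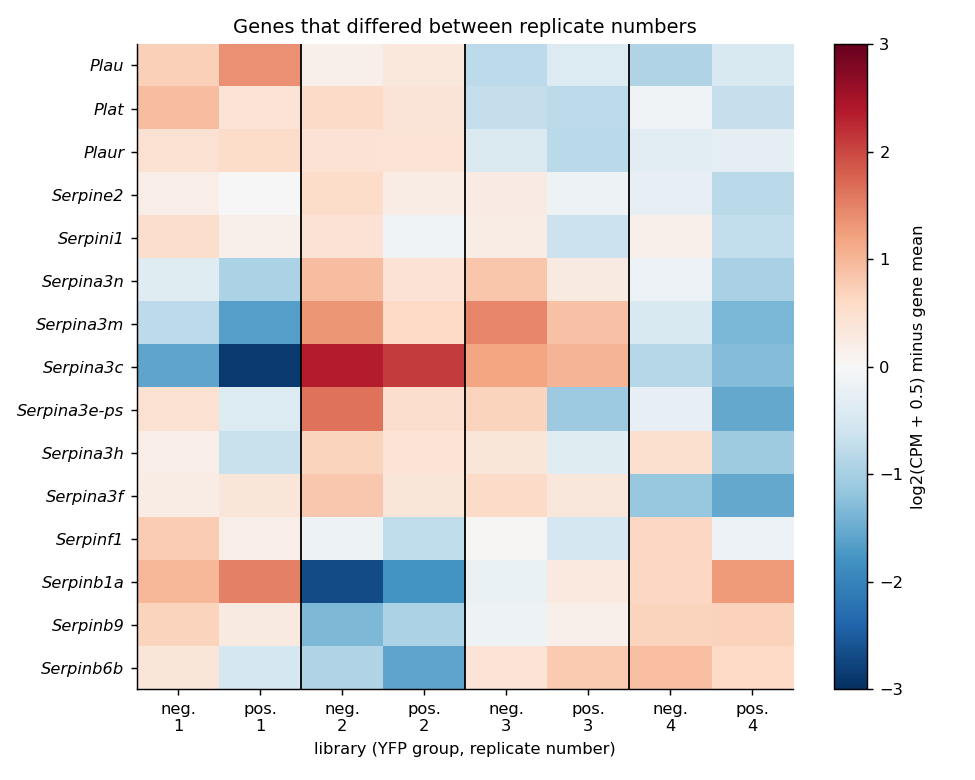
Log2(CPM + 0.5) of each library minus the gene's mean over 8 libraries, for 15 of the 16 members called between replicate numbers (rows), with libraries ordered by number and black lines between numbers. Plau, Plat and Plaur are high in numbers 1 and 2, and Serpina3n, Serpina3m and Serpina3c in numbers 2 and 3.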

How the data were processed

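Per the labels' protocols, libraries were made from sorted cells with a low-input stranded total RNA kit and sequenced on an Illumina NextSeq. Trimming, alignment and counting tools named in the submitters' processing notes are featureCounts 2.0.1, STAR 2.7.3a and cutadapt 3.4, beside DESeq2, on build GRCm38; their settings and strand option are not stated. Per the file headers, the deposited table holds each library's raw counts by gene and the authors' normalised values (a score: counts divided by size factors and rounded). It also holds the authors' signal means, their linear fold ratio, log2 fold change, p-values and other model terms, per the file headers.

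Counts were analysed with edgeR 4.0.16 in R 4.3.3 (filterByExpr by group, TMM factors, robust quasi-likelihood, two-sided, Benjamini-Hochberg over all 15945 genes tested); DESeq2 1.42.0 and limma 3.58.1 were alternatives. CPM is TMM-normalised and log2 CPM used a prior count of 0.5. Groups and numbers came from the titles. Log2 deviations from the group means correlated at 0.183, 0.442, 0.328 and 0.331 between libraries of equal number (highest between different numbers 0.0273), so numbers were taken to pair libraries, from the data. DESeq2 with number and group as terms gave the authors' fold changes and statistics to within 0.0005 for 29762 genes, and with group alone statistics differed by up to 9.96. Within groups, every pair of libraries differed beyond sampling noise (chi-square over degrees of freedom at least 56.6). At 12481608 to 29385718 counts, 3 counts correspond to 0.101 to 0.256 CPM; counting error only is meant. Tests were tried on simulated data. Coordinates and exon lengths are from GENCODE M21 (GRCm38), which held all 70 members.

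Named in full were the plasminogen genes, members called in either fit, the 8 most abundant per exon length and members among the 6 lowest p-values between numbers; of partner lists, called genes and the 2 most abundant. Results for 1 member, counted in the totals, are not reported here. Members and lists were chosen with earlier results of these data known, and the squamous list after seeing these values.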

Additional observations from a re-analysis of the deposited data

Results flagged for a closer look

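Within groups of 4, a library was singled out when its gap to the nearest other exceeded Dixon's 95% critical share of the group's range. That share assumes normally distributed values and gives no chance rate here. A library alone in having counts always passes it. Untested members entered with at least 20 counts, which the library singled out could itself supply. Of 71 groups examined, 11 had such a library. Of these, 6 were in YFP-positive replicate 2, the library with squamous keratins: Serpinb2 at 20.6 CPM, Serpinb5 at 5.46, Serpinb7 at 5.80, Serpinb8 at 4.14, Serpina3b at 3.66 and Serpina3j at 0.552 CPM, each the highest of its group. Serpina3j there rests on 8 counts in a group otherwise at 0, and YFP-negative replicate 4 also had 8 counts of it. Serpina3f was low in YFP-positive replicate 4, at 27.9 CPM against 104 to 106 CPM in the other 3. Serpinf2 was high in YFP-positive replicate 1, at 2.65 CPM against 0.0691 to 0.356 CPM. The other 3 rest on 1 to 10 counts in a group otherwise at 0: Serpinb7 in YFP-negative replicate 2 (0.0852 CPM, 1 count), Serpinb6e in YFP-negative replicate 3 (0.337 CPM, 10 counts) and Serpine3 in YFP-positive replicate 4 (0.198 CPM, 5 counts).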

How the results depend on the processing

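With group alone, 0 members and 0 partner genes were called under every alternative run (other tests, scalings, filters and each library left out). The replicate block called 10 members and 5 partner genes. With the block, members and partner genes called were 11 and 7 with DESeq2, 12 and 8 with limma voom, 10 and 5 with RLE factors, 10 and 5 with upper-quartile factors, 9 and 6 with library sizes alone, 13 and 7 with the looser filter, and 10 and 5 with the stricter filter. They were 7 and 2 without number 1, 12 and 5 without number 2, 4 and 4 without number 3, and 8 and 2 without number 4. These fits hold fewer samples. Calls over all genes, higher and lower, were 73 and 121 without number 1 and 130 and 296 without number 2. Those were 38 and 119 without number 3, and 47 and 120 without number 4. With DESeq2 the calls over all genes were 168 and 357, with limma voom 221 and 392, and with the looser filter 253 and 420. With RLE factors they were 99 and 265, with upper-quartile factors 119 and 216, and with the stricter filter 131 and 285. The looser filter tested 57 members and 29762 genes and the stricter one 22 and 12526, against 26 and 15945. Serpinb5, called with the looser filter, had 79 of its 90 counts in YFP-positive replicate 2. Serpina3n, Serpina3m and Serpinf1 kept their calls in all 11 other blocked settings, and the blocked direction turned for no called member. Between replicate numbers 14 of 25 tested members (without number 1) to 19 of 57 (looser filter) were called, against 16 of 26. Over all genes the calls were 5917 of 16140, 7172 of 29762 and 6270 of 15945, in this order. With group alone and 1 library left out, the log2 fold change ran from -0.079 to 0.85 for Plau, from -0.22 to 0.19 for Plaur and from -0.49 to 0.078 for Serpina3f. Plaur also turned to 0.056 with library sizes alone, 0.027 with block and library sizes alone, and 0.041 with block without number 3; the cause was not tested. Depth limits members under about 1 CPM.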
